A study of Homo sapiens with 15 samples.

Results

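FOLR1, the gene of folate receptor alpha, and 7 other genes that carry folate into cells, keep it there or export it were followed in the human ovarian cancer line SKOV3ip1, which is epithelial. The genes were FOLR1 and FOLR2 (receptors), SLC19A1 and SLC46A1 (carriers), FPGS and GGH (retention), and ABCC1 and ABCG2 (exporters). They are 8 of the 19775 genes named on the Affymetrix U133 Plus 2.0 array, and every probe set annotated to one of these symbols alone was taken, 20 of the 54613 that are not controls. FOLR1 and FOLR2 each had 2, SLC19A1 had 7, SLC46A1 had 4, ABCC1 had 2, and FPGS, GGH and ABCG2 each had 1.

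The labels name 5 conditions. The no MTF cells grew for 7 days in folate-free medium. The 4 other cultures grew for 7 days with physiological folic acid, given as 2 to 10 nm, a unit read here as nM. Of these, 5-MTF+003 received the 003 antibody for 24 hours, MTF+MORAb0003 received the MORAb003 antibody for 24 hours, 5-MTF+004 received the control antibody 004 for 24 hours, and 5-MTF received no antibody. MORAb-003, known as farletuzumab, is a humanised antibody to folate receptor alpha. Whether 003 is that same antibody is not stated, nor is what MTF stands for. Each condition was 1 cell growth and 1 RNA extract of 1 cell line, and 3 aliquots of that extract were hybridised, giving 15 arrays. The SDs and p-values therefore rest on the spread between such aliquots and compare 5 preparations of RNA, with no measure of the spread between separate cultures. A level in bulk RNA does not tell fewer expressing cells from less RNA per cell.

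Folates enter cells by several routes. The receptors FOLR1 and FOLR2 hang from the outer membrane by a lipid anchor and take folic acid in by endocytosis, the reduced folate carrier SLC19A1 exchanges reduced folates for anions, and the proton-coupled folate transporter SLC46A1 works best at acid pH. Inside the cell FPGS adds glutamates, which holds folates and antifolate drugs back, GGH removes them, and the ABC pumps ABCC1 and ABCG2 can export folates that carry few or no glutamates. FOLR1 is known for its high level in many ovarian carcinomas.

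All values are the deposited log2 levels, and a difference of 1 is 2-fold. A probe set was tested if its highest extract mean was no lower than 6.60, the overall median level. It was called higher or lower at a Benjamini-Hochberg adjusted p under 0.05 over the 30127 tested probe sets, provided the fold was 1.5 or more. Of the 20 probe sets, 16 were tested, and they came from 7 of the 8 genes. The 4 others, 3 of SLC19A1 and the 1 of ABCG2, are given by level. Replicate 1 of 5-MTF+004 stood apart: its highest r with another array of that extract was 0.950, against 0.993 or more for every other pair of aliquots. Results that rest on the 5-MTF+004 extract are given with and without it. This array also widens the spread shared by all comparisons, so adjusted p without it is given for the others where a call changes. The epithelial markers of the cell line were present, with all 10 past the filter. EPCAM, for example, read 13.4 to 13.8, but MUC16, the gene of the ovarian tumour antigen CA125, lay only at percentile 52.3. In MTF+MORAb0003 MUC16 averaged 6.41, under the filter level. Of 7 leukocyte and macrophage markers 6 lay below the filter, CD3E being the exception. Of 7 fibroblast and endothelial markers 5 were past the filter, COL1A1 at percentile 86.3, PECAM1 at 82.7, DCN, VWF and CDH5. The log2 of their summed linear levels ran from 10.5 to 10.7 in no MTF, 10.7 to 10.8 in 5-MTF+003, 10.4 to 10.5 in MTF+MORAb0003, 10.5 to 10.7 in 5-MTF+004 and 10.5 to 10.7 in 5-MTF, and its part in the results was not tested.

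The levels differed widely between genes. Because probe sets bind their targets with different strength, the following places each probe set among all probe sets of the same arrays and sets no gene against another. Averaged over the 15 arrays, the brightest FOLR1 probe set (204437_s_at) lay at percentile 99.6, GGH at 95.5, the brightest SLC19A1 probe set (211576_s_at) at 92.3, FPGS at 90.4 and the brightest ABCC1 probe set (202804_at) at 89.8. The brightest SLC46A1 probe set (1552279_a_at) lay at 74.3, the brightest FOLR2 probe set (204829_s_at) at 65.8 and ABCG2 at 45.4. FOLR1 was thus near the top of the scale in every array, between 13.2 and 14.1.

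**Figure D1:**
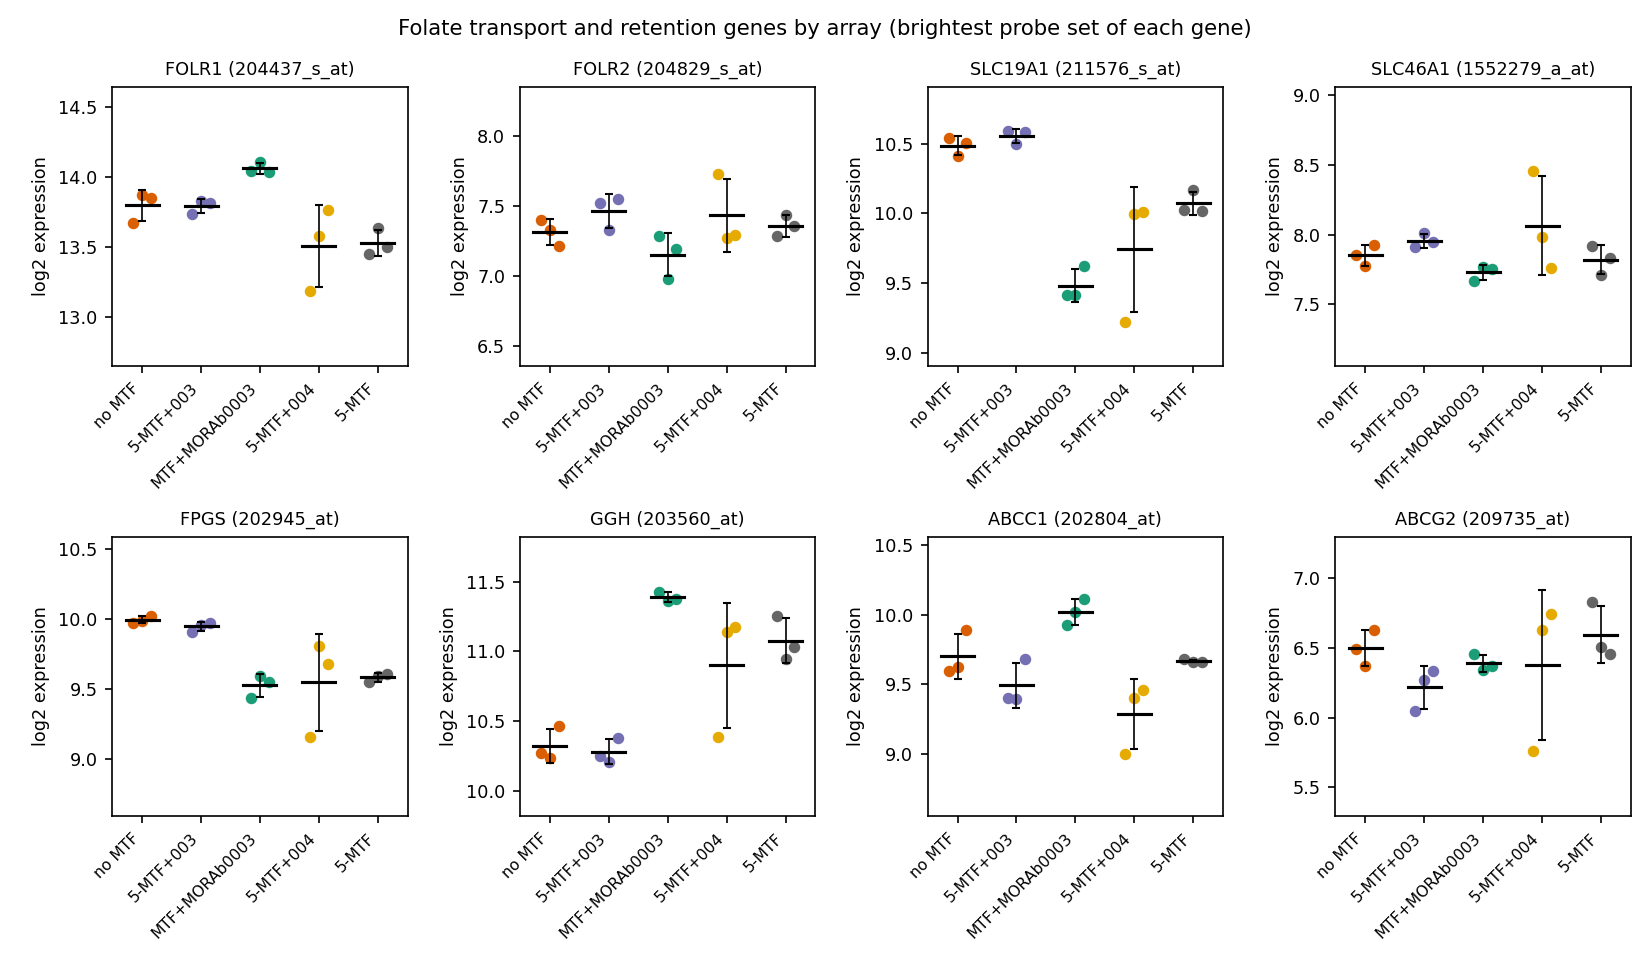
Log2 expression (vertical axis, spanning 2 units in each panel) of the brightest probe set of each of the 8 genes in the 5 extracts. Points are arrays, bars are means and whiskers are SD over 3 aliquots. FOLR1 was highest in MTF+MORAb0003, SLC19A1 and FPGS were highest in no MTF and 5-MTF+003, and GGH was lowest there, with 1 array of 5-MTF+004 (10.38) at their level.

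The receptor genes were taken first. FOLR1 (chromosome 11, 72189709 to 72196323, GRCh38.p14) was read by 2 probe sets, and these differed in where they placed MTF+MORAb0003. The suffix _s_at marks probes that match several transcripts, while _at marks probes designed to match 1. On 204437_s_at the 3 arrays read 13.67, 13.87 and 13.85 in no MTF, 13.74, 13.83 and 13.82 in 5-MTF+003, 14.04, 14.11 and 14.03 in MTF+MORAb0003, 13.19, 13.57 and 13.76 in 5-MTF+004, and 13.45, 13.63 and 13.50 in 5-MTF. The 3 MTF+MORAb0003 arrays were above all 12 others, and 5-MTF+004 overlapped both 5-MTF and 5-MTF+003. On 211074_at the arrays read 11.14, 10.91 and 11.39 in no MTF, 10.92, 10.86 and 10.80 in 5-MTF+003, 9.26, 9.06 and 10.10 in MTF+MORAb0003, 9.45, 10.37 and 10.73 in 5-MTF+004, and 10.48, 10.55 and 10.10 in 5-MTF. Here MTF+MORAb0003 held the 2 lowest arrays, and its replicate 3 was at the level of the lowest 5-MTF array.

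The differences of FOLR1 in MTF+MORAb0003 therefore had opposite signs. Against 5-MTF, 204437_s_at was higher by 0.53 (SE 0.13, adjusted p = 0.0146), which is 1.45-fold and under the fold minimum. On the other probe set, 211074_at, the extracts differed by -0.90 (SE 0.30, adjusted p = 0.0604), which did not pass. Without replicate 1 of 5-MTF+004 that second difference was called (adjusted p = 0.00219). The labels give 2 array dates, with replicates 1 and 2 of every extract on one and replicate 3 on the other. The difference on 211074_at was -1.35 on the first date and 0.0031 on the second, while that on 204437_s_at was 0.54 and 0.53. Against 5-MTF+004, 204437_s_at was higher by 0.55 (adjusted p = 0.00573; 0.39 without the array that stood apart) and 211074_at differed by -0.71 (adjusted p = 0.0736; -1.08 and called, adjusted p = 0.00141, without it).

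A gap of this size between 2 probe sets of a gene was uncommon on these arrays. In MTF+MORAb0003 minus 5-MTF the differences of the 2 FOLR1 probe sets lay 1.44 apart, more than in 99.5% of the 3796 genes with 2 tested probe sets, of which 20 had a range at least as large. In 33.8% of those genes the signs were opposite. In no MTF minus 5-MTF the 2 FOLR1 probe sets had the same sign, at 0.27 (adjusted p = 0.272) and 0.77 (adjusted p = 0.158), and their range exceeded that of 86.5% of such genes. Only 211074_at of the pair was called in that comparison once the array that stood apart was left out (adjusted p = 0.00887). There 204437_s_at had adjusted p = 0.0199 and was under the fold minimum. Across the 15 arrays the 2 probe sets correlated at -0.07, and at -0.42 over 14 arrays.

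By extract mean, the distance between the FOLR1 probe sets was largest where a measure of RNA 3′ to 5′ representation was smallest. On the actin control probe sets the 3′ signal exceeded the 5′ signal by 4.09 in no MTF, 4.02 in 5-MTF+003, 2.42 in MTF+MORAb0003, 3.46 in 5-MTF+004 and 3.24 in 5-MTF. The level of 204437_s_at exceeded that of 211074_at by 2.65 in no MTF, 2.93 in 5-MTF+003, 4.59 in MTF+MORAb0003, 3.32 in 5-MTF+004 and 3.15 in 5-MTF. MTF+MORAb0003 had both the smallest actin gap and the largest FOLR1 gap, and no MTF had the reverse. The means of 5-MTF and 5-MTF+004 did not keep this order, nor did the arrays within each extract. Replicate 1 of 5-MTF+004 had the largest actin gap (3.82) and the largest FOLR1 gap (3.73) of its extract. Replicate 3 of MTF+MORAb0003 had the smallest actin gap of all arrays (2.32) but the smallest FOLR1 gap of its extract (3.93). The GAPDH control gap was smallest in MTF+MORAb0003 too, at 1.21, against 1.97 in 5-MTF. The part of RNA quality in the FOLR1 result was not tested.

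**Figure D2:**
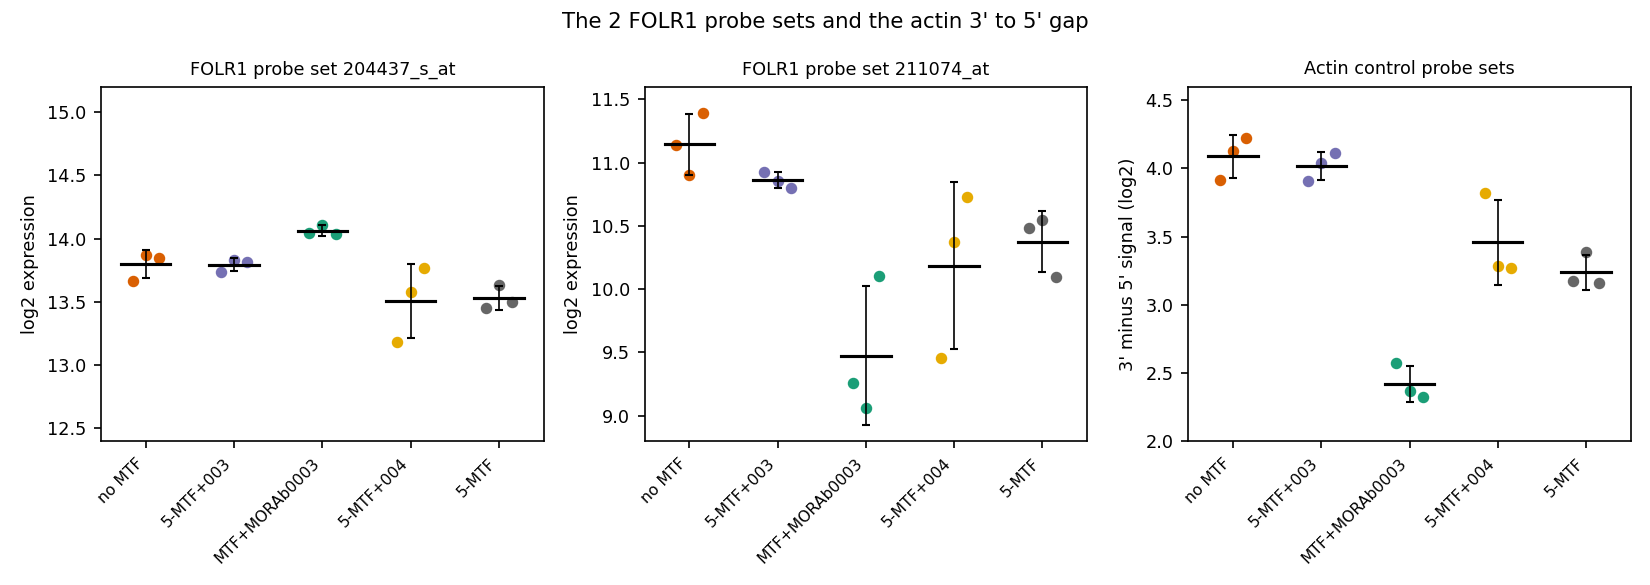
Log2 expression of the 2 FOLR1 probe sets and the actin 3′ minus 5′ signal (log2) in the 15 arrays, with means and SD over 3 aliquots. In MTF+MORAb0003 the probe set 204437_s_at was at its highest (mean 14.06), 211074_at at its lowest (9.47) and the actin gap at its smallest (2.42).

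In 5-MTF+003 both FOLR1 probe sets were above 5-MTF without passing the test, at 0.27 (SE 0.13, adjusted p = 0.253) and 0.49 (SE 0.30, adjusted p = 0.371). Without the array that stood apart these had adjusted p of 0.0204 and 0.0809, and neither was called. Against 5-MTF+004 the differences were 0.29 (adjusted p = 0.206) and 0.68 (adjusted p = 0.199), or 0.12 and 0.31 without the array that stood apart. On 204437_s_at the 5-MTF+003 and 5-MTF+004 arrays overlapped, and on 211074_at they did not. Set against MTF+MORAb0003, the 5-MTF+003 extract was higher on 211074_at by 1.39 (SE 0.30, adjusted p = 0.00223), a called difference that was 1.73 on the first array date and 0.70 on the second. On 204437_s_at it differed by -0.27 (adjusted p = 0.10), or adjusted p = 0.00823 without the array that stood apart, under the fold minimum.

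FOLR2, which encodes folate receptor beta, best known from macrophages, was low on both probe sets. Its gene lies close to FOLR1 on chromosome 11, at 72216794 to 72221950. On 204829_s_at the arrays ran from 7.22 to 7.40 in no MTF, 7.33 to 7.55 in 5-MTF+003, 6.98 to 7.29 in MTF+MORAb0003, 7.27 to 7.73 in 5-MTF+004 and 7.28 to 7.44 in 5-MTF. On 229619_at they ran from 6.91 to 7.06 in no MTF, 7.04 to 7.10 in 5-MTF+003, 6.77 to 6.79 in MTF+MORAb0003, 6.89 to 7.15 in 5-MTF+004 and 6.72 to 6.92 in 5-MTF. The extracts overlapped in most pairs, and no FOLR2 difference was called in any of the 7 comparisons. Past the p threshold alone was 229619_at in 5-MTF+003 minus MTF+MORAb0003, at 0.29 (SE 0.09, adjusted p = 0.0203). The 2 FOLR2 probe sets had the same sign in 6 of 7 comparisons and correlated at 0.69 over 15 arrays.

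Among the carriers, SLC19A1 (chromosome 21, 45502517 to 45563025) differed between extracts on 3 of its 4 tested probe sets. On the brightest, 211576_s_at, the arrays read 10.54, 10.41 and 10.50 in no MTF, 10.59, 10.50 and 10.58 in 5-MTF+003, 9.42, 9.41 and 9.62 in MTF+MORAb0003, 9.22, 9.99 and 10.01 in 5-MTF+004, and 10.03, 10.17 and 10.02 in 5-MTF. The no MTF and 5-MTF+003 arrays overlapped each other and lay above all others. The MTF+MORAb0003 arrays lay below all others but 1, the array of 5-MTF+004 that stood apart.

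In 5-MTF+003 SLC19A1 rose by 0.81 over 5-MTF+004 on 211576_s_at (SE 0.17, 1.76-fold, adjusted p = 0.0156). Without replicate 1 of 5-MTF+004 the difference was 0.55 (adjusted p = 0.000339), under the fold minimum and so not called. The call was also lost without any 1 of the 5-MTF+003 arrays. The difference was 0.94 on the first array date and 0.57 on the second. Against 5-MTF the difference was 0.49 (SE 0.17, adjusted p = 0.119), or adjusted p = 0.000253 without replicate 1 of 5-MTF+004, under the fold minimum. In MTF+MORAb0003 SLC19A1 was lower than in 5-MTF, with -0.59 on 211576_s_at (SE 0.17, adjusted p = 0.0326), at a fold of 1.503, just past the fold minimum, and the call was lost without any 1 of the 5-MTF arrays or replicate 1 or 2 of MTF+MORAb0003. Against 5-MTF+004 it differed by -0.26 (adjusted p = 0.219), or -0.52 without the array that stood apart, and neither was called. After quantile normalization this difference was -0.61 (adjusted p = 0.000145) and called. The contrast between the 2 antibody extracts was larger: 5-MTF+003 was above MTF+MORAb0003 by 1.07 (SE 0.17, 2.11-fold, adjusted p = 0.00024). In no MTF SLC19A1 differed from 5-MTF by 0.41 (SE 0.17, adjusted p = 0.176), or adjusted p = 0.000767 without the array that stood apart, under the fold minimum.

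The dimmer probe sets 1555952_at and 1555953_at had the same order of extracts as 211576_s_at apart from no MTF and 5-MTF+003, which changed places. They correlated with it at 0.97 and 0.96 over 15 arrays and had the same sign in 7 of 7 comparisons. Between the 2 antibody extracts, 5-MTF+003 minus MTF+MORAb0003, 1555952_at differed by 0.67 (SE 0.11, adjusted p = 0.00045) and 1555953_at by 0.74 (SE 0.11, adjusted p = 0.000218), and both were called. For MTF+MORAb0003 minus 5-MTF they passed the p threshold at -0.42 and -0.49 but not the fold minimum. The probe set 209777_s_at was not called in any of the 7 comparisons. It ran from 8.88 to 9.58 over the 15 arrays, correlated with the other 3 at 0.49 to 0.65, and had their sign in 4 of 7 comparisons. Its difference for MTF+MORAb0003 minus 5-MTF was 0.12 (SE 0.12, adjusted p = 0.525), opposite in sign to the 3 others.

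The 3 SLC19A1 probe sets below the filter differed among themselves. The level of 209776_s_at lay between 6.48 and 6.59 in MTF+MORAb0003, above all 12 other arrays, and it correlated with the 3 concordant probe sets at -0.73 to -0.75 over 15 arrays. When all probe sets were tested with no filter, 209776_s_at differed by -0.48 in 5-MTF+003 minus MTF+MORAb0003 (adjusted p = 0.00246), under the fold minimum. The levels of 209775_x_at ran from 6.08 to 6.49, and the suffix _x_at marks probes that may bind unrelated transcripts. For 229639_s_at the range was 5.46 to 6.67, its highest value coming from the array that stood apart. Over the 14 other arrays it correlated at 0.76 with each of the 3 concordant probe sets, against -0.11 to 0.05 over all 15, and its lowest mean was that of MTF+MORAb0003, at 5.50. Differences of the 4 tested probe sets spread over 0.71 in MTF+MORAb0003 minus 5-MTF, more than in 66.4% of the 649 genes with 4 tested probe sets, so that disagreement of this size is common on these arrays.

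**Figure D3:**
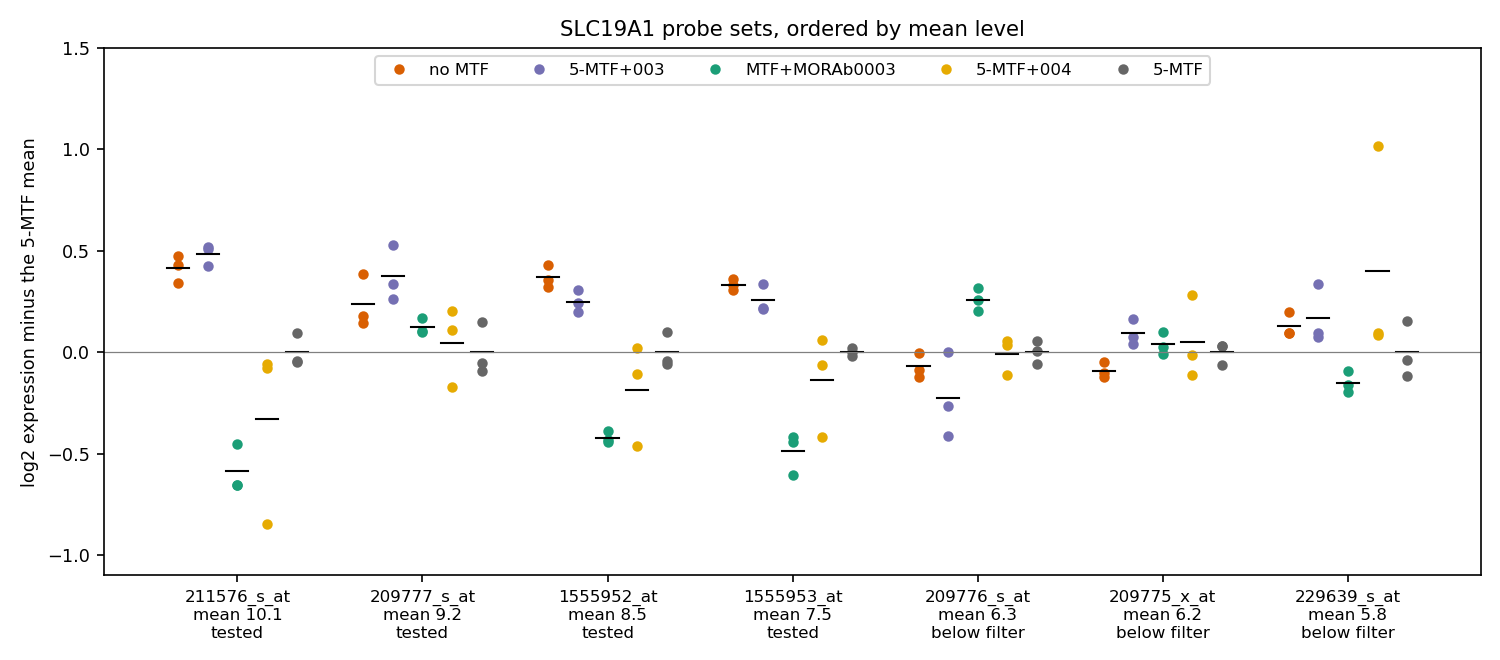
The 7 SLC19A1 probe sets from brightest to dimmest, as log2 expression of each array minus the 5-MTF mean of the same probe set. Points are arrays and bars are means. On 211576_s_at, 1555952_at and 1555953_at the no MTF and 5-MTF+003 arrays lie highest and MTF+MORAb0003 has the lowest mean, 209777_s_at does not show this, and 209776_s_at is highest in MTF+MORAb0003.

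SLC46A1 (chromosome 17, 28394642 to 28406592) showed no called difference on any of its 4 probe sets in the 7 comparisons. On 1552279_a_at the arrays read 7.86, 7.77 and 7.92 in no MTF, 7.91, 8.01 and 7.94 in 5-MTF+003, 7.67, 7.77 and 7.75 in MTF+MORAb0003, 8.45, 7.98 and 7.76 in 5-MTF+004, and 7.91, 7.71 and 7.83 in 5-MTF. All extract means of this probe set lay within 0.34 of each other, and the highest array was the one that stood apart. The means of 233531_at, 1552278_a_at and 1558703_at lay within 0.16, 0.30 and 0.20. Over 14 arrays 1558703_at, the dimmest, correlated with the 3 others at -0.36 to -0.66, while the pairs among those 3 correlated at 0.32 to 0.57.

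Of the retention genes, FPGS (chromosome 9, 127802858 to 127814506), whose product adds glutamates, was read by 1 probe set. It read 9.98, 9.99 and 10.02 in no MTF, 9.91, 9.96 and 9.97 in 5-MTF+003, 9.43, 9.59 and 9.55 in MTF+MORAb0003, 9.15, 9.81 and 9.68 in 5-MTF+004, and 9.55, 9.60 and 9.60 in 5-MTF. As for SLC19A1, the no MTF and 5-MTF+003 arrays lay above all others. The differences were 0.41 for no MTF minus 5-MTF (SE 0.13, adjusted p = 0.091), 0.37 for 5-MTF+003 minus 5-MTF (adjusted p = 0.141) and 0.42 for 5-MTF+003 minus MTF+MORAb0003 (adjusted p = 0.0202). None reached 1.5-fold, and without the array that stood apart the adjusted p were 0.000311, 0.000949 and 6.05e-05. After quantile normalization the last of these differences was 0.63 (adjusted p = 1.86e-05) and called. Against 5-MTF+004 the 5-MTF+003 extract differed by 0.40 (adjusted p = 0.0921), or 0.20 (adjusted p = 0.0698) without that array. FPGS in MTF+MORAb0003 differed from 5-MTF by -0.06 (SE 0.13, adjusted p = 0.813), with overlapping arrays.

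SLC19A1 and FPGS moved together over the arrays, with r = 0.90 over 15 arrays and 0.87 over 14. The arrays share extracts and scaling, so these values are a description. Both genes were highest in the 2 extracts with the largest control gaps, no MTF and 5-MTF+003, where the GAPDH gap was 2.37 and 2.49. The part of RNA quality in the SLC19A1 and FPGS differences was not tested. The windows around 1 annotated start of each gene are shown because these 2 members share a profile; of the starts listed for each gene, the first with the most GC boxes was taken. They are RefSeq sequences of GRCh38.p14, from 250 bases before to 50 bases after the start, 5′ to 3′ on the gene's strand: chr21:45542391-45542690 (minus strand) for SLC19A1 and chr9:127802608-127802907 (plus strand) for FPGS. Capitals mark the GC box, the letters GGGCGG or CCGCCC on the strand shown.
SLC19A1: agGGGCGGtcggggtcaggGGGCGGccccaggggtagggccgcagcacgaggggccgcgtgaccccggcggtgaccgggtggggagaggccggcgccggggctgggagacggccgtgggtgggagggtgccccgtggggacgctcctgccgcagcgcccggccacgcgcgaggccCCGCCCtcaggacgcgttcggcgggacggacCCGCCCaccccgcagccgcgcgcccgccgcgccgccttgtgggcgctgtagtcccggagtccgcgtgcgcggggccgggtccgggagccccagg
FPGS: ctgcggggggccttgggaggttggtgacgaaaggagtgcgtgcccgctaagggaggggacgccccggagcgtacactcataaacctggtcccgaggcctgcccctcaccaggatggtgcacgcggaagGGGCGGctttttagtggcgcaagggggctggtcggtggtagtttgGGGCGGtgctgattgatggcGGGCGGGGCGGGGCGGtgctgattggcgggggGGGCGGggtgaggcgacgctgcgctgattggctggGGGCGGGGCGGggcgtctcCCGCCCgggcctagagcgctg
The SLC19A1 window held 4 GC boxes and the FPGS window 9, some of which share letters with their neighbours. At least 1 was found in 45% of 35116 windows of the same length, at least 4 in 9.06% and at least 9 in 0.419%. The printed windows were picked for the most GC boxes, so these shares of unpicked windows are not a like comparison. Other annotated starts differ: the 3 other SLC19A1 windows held 0, 0 and 1, and the 2 other FPGS windows 9 and 1. The E box CACGTG was in neither printed window, but it was in another listed window of each gene and in 7.26% of all windows. These matches describe letters in a window and say nothing on binding.

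GGH (chromosome 8, 63015079 to 63038806), the gene of gamma-glutamyl hydrolase, was the member called in the most comparisons. Its single probe set read 10.27, 10.24 and 10.47 in no MTF, 10.25, 10.21 and 10.38 in 5-MTF+003, 11.43, 11.36 and 11.38 in MTF+MORAb0003, 10.38, 11.14 and 11.18 in 5-MTF+004, and 11.26, 10.94 and 11.03 in 5-MTF. Leaving out the 5-MTF+004 array at 10.38, the 6 arrays of no MTF and 5-MTF+003 lay below all others, and MTF+MORAb0003 lay above all others.

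GGH fell in no MTF relative to 5-MTF by 0.75 (SE 0.17, 1.69-fold, adjusted p = 0.0194), a call lost without replicate 1 or 2 of no MTF or replicate 1 or 3 of 5-MTF. In 5-MTF+003 it fell by 0.80 relative to 5-MTF (SE 0.17, 1.74-fold, adjusted p = 0.0258), a call lost when any 1 of these 6 arrays was left out. Relative to 5-MTF+004 GGH in 5-MTF+003 differed by -0.62 (SE 0.17, adjusted p = 0.0486), which was -0.88 (adjusted p = 2.9e-05) without the array that stood apart. This last call was lost when any 1 of the 14 other arrays was left out. With the array date as a block it was lost at adjusted p = 0.0522, and the difference was -0.53 on the first date and -0.80 on the second. From MTF+MORAb0003 the 5-MTF+003 extract differed in GGH by -1.11 (SE 0.17, 2.16-fold, adjusted p = 0.000245). In MTF+MORAb0003 it differed from 5-MTF by 0.31 (SE 0.17, adjusted p = 0.249) and from 5-MTF+004 by 0.49 (adjusted p = 0.0401), or 0.23 (adjusted p = 0.0732) without the array that stood apart.

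By extract mean, GGH was lower where the actin 3′ to 5′ gap was larger, apart from the order of no MTF and 5-MTF+003. GGH averaged 10.32 in no MTF, 10.28 in 5-MTF+003, 11.39 in MTF+MORAb0003, 10.90 in 5-MTF+004 and 11.08 in 5-MTF. The actin gap was largest in no MTF and 5-MTF+003 (4.09 and 4.02), where GGH was lowest, and smallest in MTF+MORAb0003 (2.42), where it was highest. Within 5-MTF+004 the array with the low GGH level (10.38) had a gap of 3.82, against 3.28 and 3.27 in the 2 others. This array, the one that stood apart, was also the lowest of its extract in SLC19A1 211576_s_at (9.22) and FPGS (9.15). By extract mean those genes were highest where the gap was largest. The part of RNA quality in the GGH differences was not tested.

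GGH ran against SLC19A1 and FPGS. Over 14 arrays GGH correlated with SLC19A1 at -0.93 and with FPGS at -0.92, and over all 15 arrays at -0.66 and -0.56. The array left out was low in all 3 genes. FOLR1 on 204437_s_at correlated with GGH at 0.12, with SLC19A1 at -0.41 and with FPGS at -0.07 over 14 arrays. The points fall into extracts, so each r rests mostly on 5 positions.

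**Figure D4:**
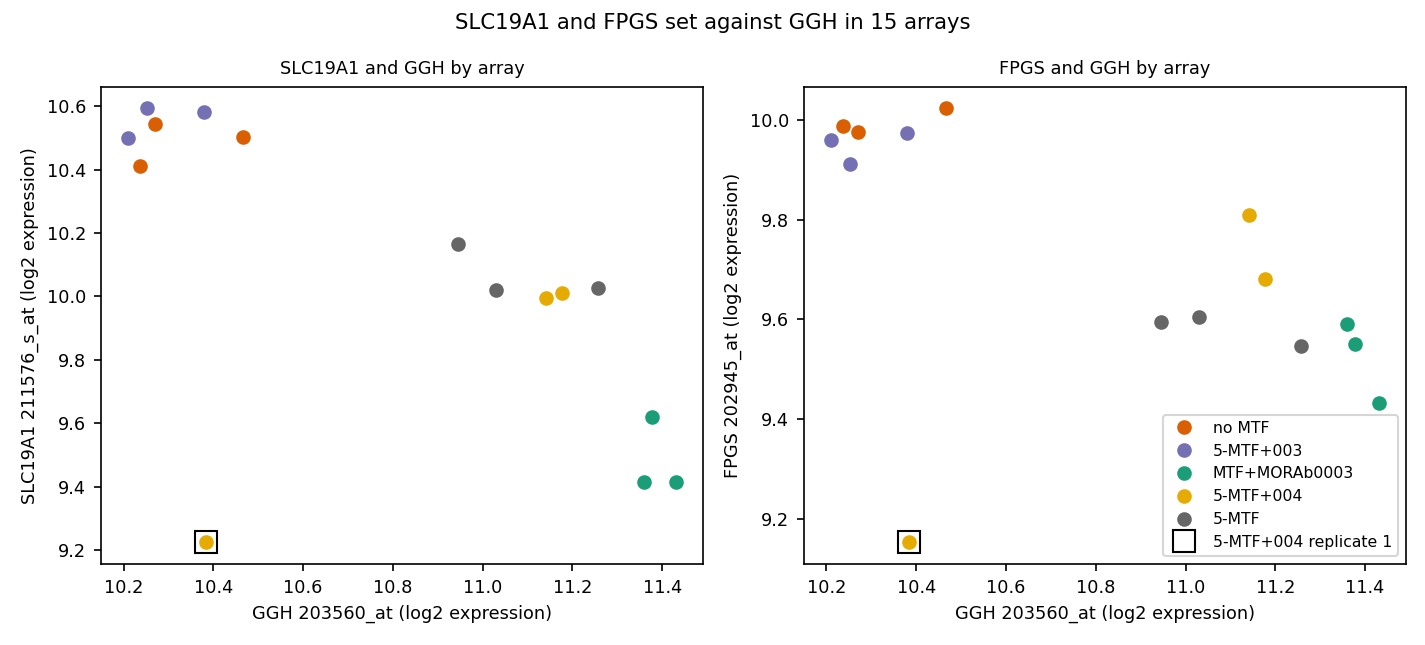
SLC19A1 (left) and FPGS (right) against GGH, all in log2 expression, 1 point per array and 1 colour per extract. No MTF and 5-MTF+003 lie at the upper left and MTF+MORAb0003 at the lower right, with the boxed array, replicate 1 of 5-MTF+004, low on both axes.

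ABCC1 (chromosome 16, 15949143 to 16143053), which encodes the multidrug resistance pump MRP1, was highest in MTF+MORAb0003 on both probe sets by mean. On 202804_at the arrays read 9.60, 9.62 and 9.89 in no MTF, 9.41, 9.40 and 9.68 in 5-MTF+003, 9.93, 10.02 and 10.11 in MTF+MORAb0003, 9.003, 9.40 and 9.46 in 5-MTF+004, and 9.68, 9.66 and 9.66 in 5-MTF. All 3 MTF+MORAb0003 arrays lay above the other 12. In MTF+MORAb0003 ABCC1 rose over 5-MTF+004 by 0.73 on 202804_at (SE 0.13, 1.66-fold, adjusted p = 0.00144), and by 0.59 and still called without the array that stood apart. After quantile normalization this difference was 0.38 (adjusted p = 0.00689) and no longer reached 1.5-fold. Against 5-MTF it was 0.35 (SE 0.13, adjusted p = 0.0941), or adjusted p = 0.00716 without the array that stood apart, under the fold minimum. The second probe set, 202805_s_at, differed by 0.30 (adjusted p = 0.0929) from 5-MTF+004 and 0.40 (adjusted p = 0.0645) from 5-MTF. Without the array that stood apart these were 0.47 (adjusted p = 0.00131) and 0.40 (adjusted p = 0.00165), both under the fold minimum. For 5-MTF+003 minus MTF+MORAb0003 the ABCC1 probe sets differed by -0.52 (adjusted p = 0.00581) and -0.45 (adjusted p = 0.0158), both under the fold minimum. They correlated at 0.23 over 15 arrays and 0.72 over 14. MTF+MORAb0003 also had the smallest actin gap (2.42). The part of RNA quality in the ABCC1 differences was not tested.

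ABCG2 (chromosome 4, 88090264 to 88231626), which encodes the breast cancer resistance protein, was near the middle of the array. Its probe set ran from 6.37 to 6.63 in no MTF, 6.05 to 6.34 in 5-MTF+003, 6.34 to 6.46 in MTF+MORAb0003, 5.76 to 6.74 in 5-MTF+004 and 6.45 to 6.83 in 5-MTF. Its highest extract mean, 6.596 in 5-MTF, fell just short of the filter. With no filter the largest of its differences in the 7 comparisons was -0.38, in 5-MTF+003 minus 5-MTF (adjusted p = 0.396).

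The calls were counted over the 16 tested probe sets, of which each is 6.25%. For no MTF minus 5-MTF 1 of 16 was called, GGH, against 3.96% of all tested probe sets, and without replicate 1 of 5-MTF+004 2 of 16, GGH and FOLR1 211074_at, against 7.2%. The 5-MTF+003 minus 5-MTF+004 comparison gave 2, SLC19A1 211576_s_at and GGH, against 3.54%, and without that array only GGH, against 6.24%. For 5-MTF+003 minus 5-MTF it was 1, GGH, against 2.23%, and without that array again GGH, against 6.76%.

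MTF+MORAb0003 minus 5-MTF+004 gave 1, ABCC1 202804_at, against 20.1%, and 2 with FOLR1 211074_at, against 12.9%, without the array that stood apart. MTF+MORAb0003 minus 5-MTF gave 1, SLC19A1 211576_s_at, against 7.81%, and again FOLR1 211074_at was added without that array, against 11.1%. The largest count was 5 for 5-MTF+003 minus MTF+MORAb0003, FOLR1 211074_at, GGH and 3 of SLC19A1, against 24.9%, and it was 5 against 25.8% without that array. The adjusted p alone, with no fold minimum, gave 4 against 35.8%, 4 against 13.1% and 9 against 44.5% in these 3 comparisons. As a share of the members, calls ran below that of all tested probe sets in MTF+MORAb0003 minus 5-MTF+004 (6.25% against 20.1%) and above it in 5-MTF+003 minus 5-MTF+004 (12.5% against 3.54%). These shares rest on 1 and 2 probe sets. Without the array that stood apart they were close to those of all tested probe sets, at 12.5% against 12.9% and 6.25% against 6.24%.

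Control antibody 004 gave no call. In 5-MTF+004 minus 5-MTF limma called 0 of 16 members and 0% of all tested probe sets, and also 0 of 16 without replicate 1 of 5-MTF+004, while with all arrays 2680 of the 30127 and 2 of the 16 had an unadjusted p under 0.05. The member differences ran from -0.38 (ABCC1 202804_at) to 0.24 (SLC46A1 1552279_a_at). Without replicate 1 of 5-MTF+004 they ran from -0.24 (ABCC1 202804_at) to 0.18 (FOLR1 211074_at).

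**Figure D5:**
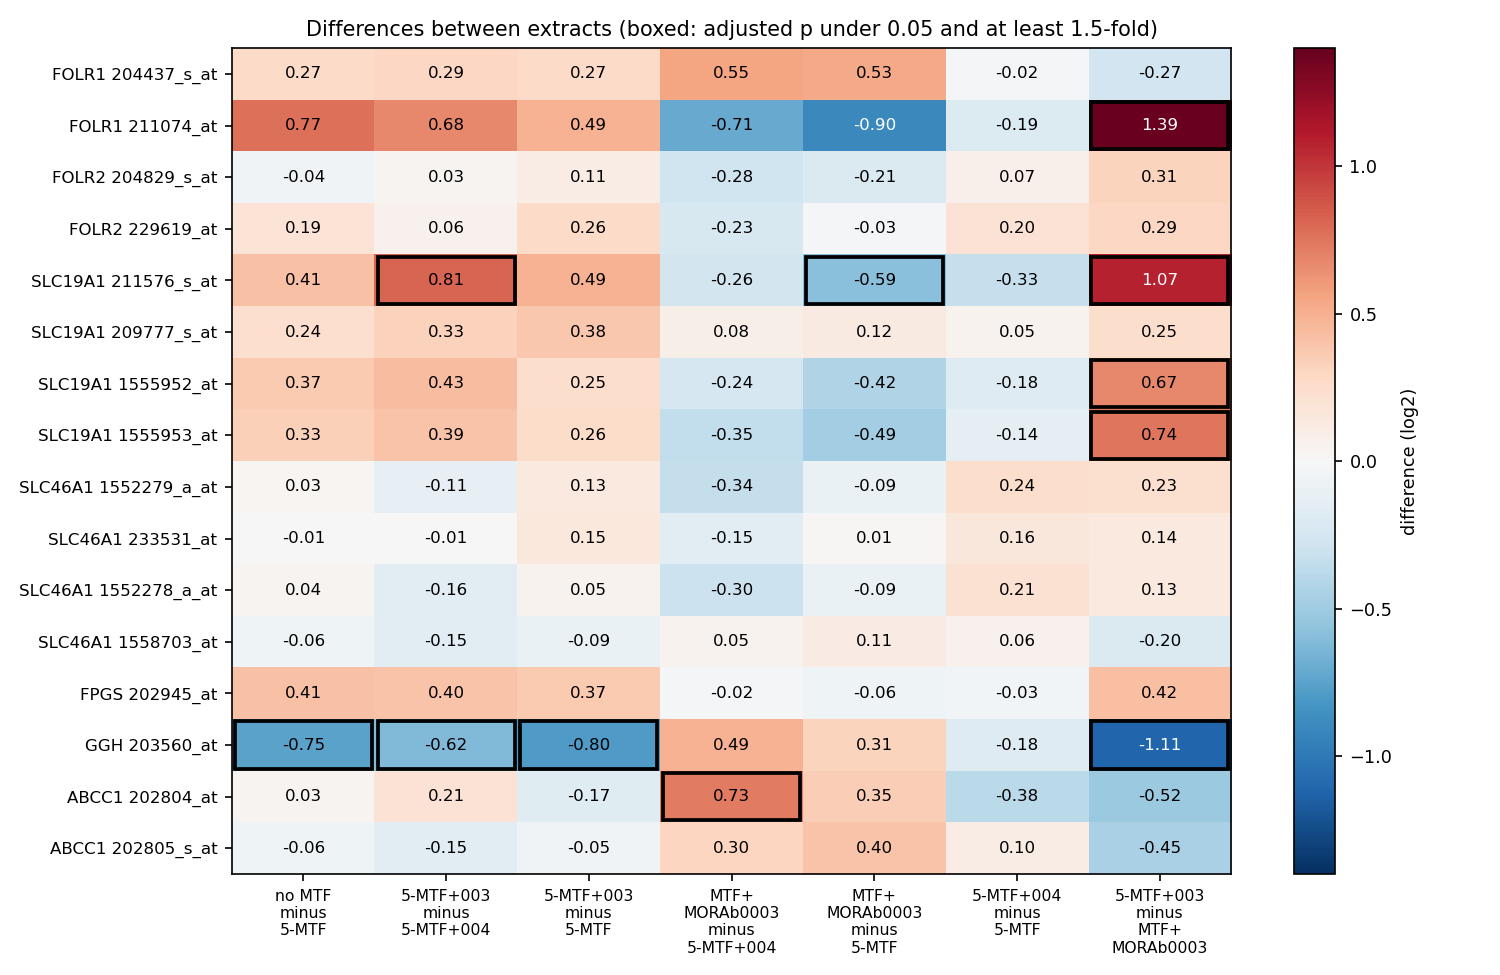
Differences (log2) of the 16 tested probe sets in the 7 comparisons, coloured from blue (lower in the extract named first) to red (higher). Boxes mark calls. GGH is boxed in 4 comparisons, SLC19A1 211576_s_at in 3, and the 2 FOLR1 probe sets have opposite colours wherever MTF+MORAb0003 is compared.

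The medians over the members were small. For no MTF minus 5-MTF 11 of 16 differences were positive with a median of 0.11, against 0.02 over all tested probe sets. The median was 0.14 against 0.06 for 5-MTF+003 minus 5-MTF+004, and 0.20 against 0.04 for 5-MTF+003 minus 5-MTF. It was -0.19 against 0.01 for MTF+MORAb0003 minus 5-MTF+004, and -0.04 against -0.04 for MTF+MORAb0003 minus 5-MTF. For 5-MTF+003 minus MTF+MORAb0003 it was 0.24 against 0.10. The probe sets of 1 gene share transcripts, and the 5-MTF and 5-MTF+004 arrays serve several comparisons, so these counts are not independent.

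The order of the 5 extracts could be resolved in few places. Each of the 16 probe sets has 4 pairs of neighbouring extracts in its order, and 2 of these 64 pairs had an adjusted p under 0.05. GGH was higher in 5-MTF+004 than in no MTF, by 0.58 (adjusted p = 0.0462), and SLC19A1 1555953_at was higher in 5-MTF+004 than in MTF+MORAb0003, by 0.35 (adjusted p = 0.0291). In GGH these extracts overlapped, through replicate 1 of 5-MTF+004 (10.38). Without that array GGH differed by -0.83 in no MTF minus 5-MTF+004 (adjusted p = 2.04e-05). SLC19A1 1555953_at then differed by -0.49 in MTF+MORAb0003 minus 5-MTF+004 (adjusted p = 0.000225). For 204437_s_at of FOLR1 the order from high to low was MTF+MORAb0003, no MTF, 5-MTF+003, 5-MTF, 5-MTF+004, and its neighbours had adjusted p of 0.118, 0.999, 0.253 and 0.925. Without replicate 1 of 5-MTF+004 the number of resolved neighbours was 11.

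A fit on the 5 extract means took 5-MTF+003 and MTF+MORAb0003, given the 003 or the MORAb003 antibody, as 2 cultures of one kind, against 5-MTF+004, given the control antibody 004, and 5-MTF, given none. The labels do not state that the cultures of a pair are equal. With 2 residual degrees of freedom limma called 0 of 16 members and 0 of 30127 probe sets, and 94 probe sets, none of them a member, had an unadjusted p under 0.05. FOLR1 204437_s_at differed by 0.41 (SE 0.21, adjusted p = 1.00), and GGH by -0.15 (SE 0.38, adjusted p = 1.00).

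The genes most like a member were those with the highest Pearson r over 14 arrays among 14368 genes with a tested probe set. For FOLR1 (204437_s_at) these were PPP4C (0.949), PDZK1IP1 (0.944), KIAA0319L (0.920), SLC25A15 (0.912) and SEZ6L2 (0.907), and no other gene passed 0.9. For GGH they were CMTM6 (0.994), SLC9D1 (0.992), ANXA3 (0.992), AHCYL1 (0.990) and OAT (0.990), among 1335 genes over 0.9. For SLC19A1 they were SGF29 (0.990), RHEX (0.990), CHTF18 (0.989), TEDC1 (0.989) and WDR18 (0.989), among 892 over 0.9. The profile of FOLR1 204437_s_at was thus shared by few genes and those of the GGH and SLC19A1 probe sets by many. The other FOLR1 probe set correlated with 204437_s_at at -0.42 over 14 arrays. The extract means of 204437_s_at spanned 0.55, against 1.11 for GGH and 1.07 for SLC19A1 211576_s_at. The part of this smaller span in the count was not tested. Over all 15 arrays 3, 4 and 2 of the 5 names stayed in the top 5 of FOLR1, GGH and SLC19A1.

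Other genes of the pathway were read from 2 lists, each gene by its brightest probe set. Of 10 further transport genes 6 were tested. ABCC4, an efflux pump, fell in no MTF relative to 5-MTF by 0.85 (SE 0.16, adjusted p = 0.00843), the only one called there; without replicate 1 of 5-MTF+004 SLC25A32, the mitochondrial folate carrier, was called too, at -0.60. SLC25A32 rose in MTF+MORAb0003 by 1.23 over 5-MTF (SE 0.34, adjusted p = 0.0286) and by 1.75 over 5-MTF+004 (adjusted p = 0.00218; 1.18 without the array that stood apart). SLC19A2, the thiamine carrier related to SLC19A1, was higher in MTF+MORAb0003 than in 5-MTF+004 by 1.18 (adjusted p = 0.026), or 0.55 and not called without that array. SLC19A2, SLC25A32 and ABCC4 were lower in 5-MTF+003 than in MTF+MORAb0003, at -1.50, -1.47 and -0.61. None of the 6 was called between 5-MTF+003 and 5-MTF+004 or 5-MTF, but without the array that stood apart SLC19A2 was, at -0.95 and -0.96.

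Of 18 folate enzymes 12 were tested, and none was called in no MTF minus 5-MTF, 5-MTF+003 minus 5-MTF+004, 5-MTF+003 minus 5-MTF or MTF+MORAb0003 minus 5-MTF. Relative to 5-MTF+004, 3 rose in MTF+MORAb0003: MTFMT, which formylates the mitochondrial initiator tRNA (1.16, adjusted p = 0.0133), MTRR, which reactivates methionine synthase (0.82, adjusted p = 0.0103), and MTHFD2, a mitochondrial folate dehydrogenase (0.59, adjusted p = 0.0187). Without the array that stood apart only MTFMT was called there, at 0.63. Without that array MTFMT was also called in the 4 comparisons that had no call, at -0.95, -0.83, -0.77 and 0.70 in the order named above, and MTR, methionine synthase, in 5-MTF+003 minus 5-MTF at -0.63. Set against MTF+MORAb0003, in 5-MTF+003 ALDH1L1, a cytosolic formyltetrahydrofolate dehydrogenase, was higher by 0.61 (adjusted p = 0.00113), and MTFMT and MTHFD2 were lower, at -1.47 and -0.80; without that array MTR (-0.67) and MTHFD2L (-0.66), a second mitochondrial dehydrogenase of the same family, were called lower too. The median difference over the 12 enzymes was 0.38 in MTF+MORAb0003 minus 5-MTF+004, against 0.01 over all tested probe sets, and 0.08 without the array that stood apart. By extract mean MTFMT was lower where the actin gap was larger, from 7.91 in no MTF (gap 4.09) to 9.55 in MTF+MORAb0003 (gap 2.42). MTRR and MTHFD2 did not keep this order. The part of RNA quality in the differences of both lists was not tested.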

How the data were processed

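Total RNA of 5 extracts was hybridised to 15 Affymetrix U133 Plus 2.0 arrays after Trizol extraction and biotin labelling, per the labels' protocols. The authors deposited log2 expression per probe set. How the signals were summarised and normalized is not given in the sources used here. In the table the lowest value was 4.00, and differences of dim probe sets may be understated. Sequences came from RefSeq windows (GRCh38.p14), which covered 4 of the 8 genes. The precision of each value is limited by the number of arrays, 3 per extract.

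Probe sets were named by the platform annotation, with symbols updated through the Entrez identifier, which matched 41037 of the 41091 probe sets with 1 symbol (1801 had several and 11721 none). All probe sets of the 8 genes were reported, and the genes most like FOLR1, GGH and SLC19A1 were the 5 with the highest Pearson r over 14 arrays, by brightest probe set. The lists of 10 further transport genes and 18 folate enzymes were read by the same call rule. The members and lists were chosen with earlier results of these data known. Tests excluded 62 control probe sets. Limma 3.58.1 (lmFit, contrasts.fit, eBayes) in R 4.3.3 fitted 5 extract means to the 15 arrays with 10 residual degrees of freedom, and p-values were Benjamini-Hochberg adjusted over the 30127 probe sets of each comparison. The fit was tested on simulated data with known changes. For no MTF minus 5-MTF it recovered 67 of 100 changes of 1.8-fold and 98 of 100 of 3-fold, with 3 false calls each time. Replicate numbers did not pair the samples: in 0 of 10 pairs of groups did all same-numbered arrays deviate together (r over 0.1). Alternatives changed the normalization, the filter, the unit, the fold minimum, the block and the arrays. Those for the order of levels were chosen after seeing the data.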

Additional observations from a re-analysis of the deposited data

How the results depend on the processing

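A chosen set of 33 member differences was recomputed. It held all those of FOLR1 in the 7 comparisons, and those of other members with an adjusted p under 0.05 with all arrays. Each was recomputed under up to 24 alternatives, 772 values in all. Of these, 697 kept their side of the threshold, among them 5 uncalled FOLR1 values in 5-MTF+004 minus 5-MTF that changed sign, 45 lost a call, 30 gained one and 0 called differences changed sign. The calls lost most often were GGH in 5-MTF+003 minus 5-MTF+004, in 19 of 24 alternatives, then GGH in 5-MTF+003 minus 5-MTF, in 7. Differences outside this set could gain a call too, as SLC19A1 211576_s_at did in MTF+MORAb0003 minus 5-MTF+004 after quantile normalization. Where a call changed, the cause was not tested.

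Like the number over all tested probe sets, given below, the number of members called depended on the setting. In no MTF minus 5-MTF it was 1, but 2 after quantile normalization or with only the 6 arrays compared, 0 on the first array date, and 0 to 2 when 1 array was left out (0 without replicate 1 or 2 of no MTF or replicate 1 or 3 of 5-MTF, 2 without replicate 1 of 5-MTF+004). In 5-MTF+003 minus 5-MTF+004 it was 2, but 1 with no filter, with the array date as a block or with the replicate block, 0 on the first date or with only the 6 arrays compared, and 0 to 1 leaving out any 1 array. In 5-MTF+003 minus 5-MTF it was 1, but 0 on the first date and 0 to 1 leaving out 1 array (0 without any 1 of those 6). In MTF+MORAb0003 minus 5-MTF+004 it was 1, but 2 after quantile normalization (FOLR1 211074_at and SLC19A1 211576_s_at, both lower, and not ABCC1) or on the first date, 4 with no fold minimum, 0 with only the 6 arrays compared, and 1 to 3 leaving out 1 array (2 without replicate 1 of 5-MTF+004 or replicate 3 of MTF+MORAb0003, 3 without replicate 2 or 3 of 5-MTF+004). In MTF+MORAb0003 minus 5-MTF it was 1, but 2 after quantile normalization or with only the 6 arrays compared, 4 with no fold minimum, 0 on the first date, and 0 to 2 leaving out 1 array (0 without replicate 1 or 3 of 5-MTF or 1 or 2 of MTF+MORAb0003, 2 without replicate 1 or 3 of 5-MTF+004 or 3 of MTF+MORAb0003). In 5-MTF+003 minus MTF+MORAb0003 it was 5, but 6 after quantile normalization, with FPGS added, 2 of the tested genes with 1 probe set per gene, 9 with no fold minimum, and 5 to 6 leaving out 1 array. The 2 resolved neighbours in the order of levels became 8 after quantile normalization, 0 on the first date and 0 to 11 leaving out 1 array (11 without replicate 1 of 5-MTF+004, otherwise 0 to 2), all chosen after seeing the data. The fit on extract means called 0 members, and 0 to 1 leaving out 1 culture (1 without 5-MTF+003, when 3894 of all tested probe sets were called too; with 1 residual degree of freedom, the lone MTF+MORAb0003 is assumed to vary like the others).

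The replicate block, fitted although the numbers pair no samples, left the member counts of the 6 other comparisons as they were, and 5 of 15 arrays correlated best with their own number. Quantile normalization moved the median of all probe sets by under 0.1 in each comparison, most in 5-MTF+004 minus 5-MTF, at -0.01 against -0.10. Over all tested probe sets, leaving out 1 array gave 519 to 2170 calls in no MTF minus 5-MTF (1192 with all arrays), 172 to 2267 in 5-MTF+003 minus 5-MTF+004 (1065), 33 to 2038 in 5-MTF+003 minus 5-MTF (673), 3889 to 9020 in MTF+MORAb0003 minus 5-MTF+004 (6058), 1215 to 3347 in MTF+MORAb0003 minus 5-MTF (2354) and 6396 to 7964 in 5-MTF+003 minus MTF+MORAb0003 (7487). Under the other settings no MTF minus 5-MTF had 0 to 2161 calls. For 5-MTF+003 the range was 0 to 1807 against 5-MTF+004, 0 to 2030 against 5-MTF and 3652 to 13393 against MTF+MORAb0003. For MTF+MORAb0003 it was 651 to 10796 against 5-MTF+004 and 267 to 3933 against 5-MTF. Some of these settings also changed the number of probe sets tested. ABCG2 (percentile 45.4) and SLC46A1 1558703_at (49.1) lay near the middle of the array. Whether signal limited their differences was not tested.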
